A study of Mus musculus with 6 samples.

Results

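Genes of the major histocompatibility complex (MHC) and of antigen presentation were followed through livers, ovaries and uteri of immature mice given fluorene-9-bisphenol (BHPF), a bisphenol used in plastics made without bisphenol A. The members were the probes whose RefSeq symbol starts with H2-, the mouse MHC prefix, or is Cd74, Ciita, B2m, Tap1, Tap2, Tapbp, Psmb8, Psmb9, Psmb10 or Nlrc5. The arrays hold 54 such probes for 44 genes among 20284 genes with a symbol. Of these, 45 probes for 37 genes cleared background on 1 array or more, by the scanner call "well above background", and the other 7 genes (H2-Eb2, H2-M1, H2-M10.1, H2-M10.3, H2-M10.4, H2-M10.6 and H2-M5) did so on none. The 37 genes comprised 22 of class I, 10 of class II, 3 immunoproteasome subunits and 2 whose symbols start with H2- but which belong to neither class (H2-K2, annotated as a pseudogene, and H2-Ke6, an enzyme gene).

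The series holds 6 one-colour Agilent arrays, 1 for each of the 3 organs in control and treated mice. All mice were female CD-1, an outbred stock, killed at 24 days of age. Treated mice received BHPF at 50 mg/kg body weight each day for 3 days by mouth and control mice received its vehicle, peanut oil. Each array was hybridized with 1 pool of RNA from 3 animals, so there are no replicates and no difference below could be tested. A gene was called when its arrays differed by at least 2-fold. A level is the log2 intensity of a gene minus the 75th percentile of the same array, so that 0 is the 75th percentile and 1 unit is a doubling, and a ratio is the difference between the levels of the same probes on a pair of arrays. Probes printed 5 times or more gave an SD of 0.13 to 0.14 for a single-spot log2 ratio in the comparisons between arrays. This covers printing and scanning only, not the spread between animals.

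MHC class I molecules are carried by almost all nucleated cells and display peptides cut by the proteasome in the cytosol, which the TAP pump moves into the endoplasmic reticulum. Class II molecules are carried mainly by dendritic cells, macrophages and B cells and display peptides from endosomes, after H2-DM has removed a fragment of the invariant chain, Cd74. In liver the Kupffer cells, dendritic cells and B cells carry class II, while hepatocytes carry class I and secrete one of its non-classical members, H2-Q10.

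The organ labels were checked against 11 hepatocyte, 11 ovary and 10 uterus markers, whose summed levels were highest on the arrays of their own organ. The array labelled BHPF uterus stood apart. All 11 hepatocyte markers were at least 2-fold higher on it than on the control uterus array (2.27% of all genes), with a median log2 ratio of 3.78. Liver probes were taken as the 466 that were brighter by 64-fold or more on the control liver array than in the other control organs. Over these, the excess of the BHPF uterus array over the control uterus array had a median of 0.65% of the BHPF liver value. Each value here is a scaled intensity, that is, the level taken out of log2. Over all 466 the excess of the BHPF over the control ovary array had a median of 0.02%. In the authors' table of log2 values the 2 uterus columns are exchanged relative to the scanner files, since each tracks the other array to within 0.001 log2 units for 99.1% of probes. The scanner files were used under their own labels, and the sign of every BHPF ratio in the uterus depends on that choice. Control arrays and BHPF arrays also occupied different positions on the slide, so position and treatment cannot be told apart. In these organs, fewer cells of a type and less RNA per cell cannot be told apart.

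Promoter sequences of 8 members are shown, with the letters TGATTGG or their reverse complement marked. Class II genes often carry these letters in the Y box, a short element close to the start site. In class I genes, Tap1 included, a match was not assigned to a Y box. The windows are RefSeq's (GRCm38.p6, chromosome 17, from 250 bases before the annotated start to 50 after it), written 5′ to 3′ on the strand of the gene, with TGATTGG on either strand in capitals. H2-Aa (chr17:34287774-34288073, minus strand), H2-Eb1 (chr17:34305617-34305916, plus strand) and H2-DMb1 (chr17:34152941-34153240, plus strand) stand for class II. H2-K1 (chr17:34000298-34000597, minus strand) and H2-D1 (chr17:35262844-35263143, plus strand) are the classical class I genes. H2-Q10 (chr17:35469839-35470138, plus strand) and H2-T3 (chr17:36190102-36190401, minus strand) are the non-classical genes whose uterine BHPF ratios were largest in size. Tap1 (chr17:34187306-34187605, plus strand) shares 275 bases of its window with Psmb9, on the opposite strand.
H2-Aa: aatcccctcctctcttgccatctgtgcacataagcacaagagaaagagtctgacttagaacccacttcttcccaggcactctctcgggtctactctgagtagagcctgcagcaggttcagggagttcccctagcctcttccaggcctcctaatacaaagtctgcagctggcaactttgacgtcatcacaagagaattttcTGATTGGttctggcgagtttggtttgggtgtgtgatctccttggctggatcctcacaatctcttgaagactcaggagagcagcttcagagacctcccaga
H2-Eb1: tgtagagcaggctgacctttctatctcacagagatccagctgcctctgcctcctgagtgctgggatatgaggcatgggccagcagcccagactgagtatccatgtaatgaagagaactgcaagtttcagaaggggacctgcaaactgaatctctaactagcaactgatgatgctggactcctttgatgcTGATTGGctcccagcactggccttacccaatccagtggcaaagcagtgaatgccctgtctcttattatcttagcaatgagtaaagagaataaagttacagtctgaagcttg
H2-DMb1: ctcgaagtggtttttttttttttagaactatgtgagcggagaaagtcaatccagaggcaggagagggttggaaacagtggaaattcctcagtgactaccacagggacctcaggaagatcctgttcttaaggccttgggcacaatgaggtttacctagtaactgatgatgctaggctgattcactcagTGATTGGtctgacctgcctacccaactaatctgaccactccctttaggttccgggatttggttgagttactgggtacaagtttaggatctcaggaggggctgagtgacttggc
H2-K1: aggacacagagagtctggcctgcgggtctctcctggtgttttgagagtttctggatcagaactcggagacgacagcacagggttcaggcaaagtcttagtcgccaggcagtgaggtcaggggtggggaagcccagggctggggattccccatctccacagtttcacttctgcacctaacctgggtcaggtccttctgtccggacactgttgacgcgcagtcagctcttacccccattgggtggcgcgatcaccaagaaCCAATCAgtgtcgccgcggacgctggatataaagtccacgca
H2-D1: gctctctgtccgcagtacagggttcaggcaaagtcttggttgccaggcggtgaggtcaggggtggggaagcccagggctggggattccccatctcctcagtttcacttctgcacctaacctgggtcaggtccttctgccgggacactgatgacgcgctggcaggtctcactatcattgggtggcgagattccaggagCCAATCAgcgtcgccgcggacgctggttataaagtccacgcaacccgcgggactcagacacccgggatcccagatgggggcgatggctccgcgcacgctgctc
H2-Q10: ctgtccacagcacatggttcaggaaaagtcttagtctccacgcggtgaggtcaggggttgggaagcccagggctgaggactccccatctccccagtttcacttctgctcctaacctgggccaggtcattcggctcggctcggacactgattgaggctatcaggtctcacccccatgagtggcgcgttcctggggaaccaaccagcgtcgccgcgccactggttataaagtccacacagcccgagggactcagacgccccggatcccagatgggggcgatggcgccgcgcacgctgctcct
H2-T3: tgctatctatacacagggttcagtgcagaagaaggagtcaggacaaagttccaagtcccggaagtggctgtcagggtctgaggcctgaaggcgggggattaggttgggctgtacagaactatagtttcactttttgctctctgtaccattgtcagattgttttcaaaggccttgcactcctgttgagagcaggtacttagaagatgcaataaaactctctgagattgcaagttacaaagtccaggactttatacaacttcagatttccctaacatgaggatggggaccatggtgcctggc
Tap1: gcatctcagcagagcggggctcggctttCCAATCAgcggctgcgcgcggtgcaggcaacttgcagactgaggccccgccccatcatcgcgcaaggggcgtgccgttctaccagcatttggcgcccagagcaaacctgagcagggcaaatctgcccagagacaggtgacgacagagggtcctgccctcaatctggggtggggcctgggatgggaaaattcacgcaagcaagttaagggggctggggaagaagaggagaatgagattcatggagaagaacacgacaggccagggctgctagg
The letters TGATTGG occurred in 6 of 7 class II members with a window (H2-DMa lacked them) and in 9 of 16 class I members, against 9.0% of all 27025 genes with a window. They were absent from the windows of H2-Q10 and H2-T3. The motif was chosen with the sequences in view, and a match describes the letters of a window and not binding of a factor.

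Between the organs of control mice, most class I genes were higher in liver than in either other organ, and most class II genes were higher in liver and in uterus than in ovary. Class I genes were a median of 1.43 log2 units higher in liver than in uterus, with 21 of 21 above 0 (50.6% of all genes) and 14 at least 2-fold higher (20.0% of all genes). Class II genes had a median of 0.01 in the same comparison, with 5 above 0 and 5 below, so that class II lay 1.42 log2 units under class I. Between liver and ovary the medians were 1.78 for class I and 1.29 for class II. Of all 37 members, 30 were at least 2-fold higher in liver than in ovary, a call made for 21.6% of all genes. Between ovary and uterus all 10 class II genes were lower in ovary, where 47.5% of all genes were higher, and 6 of them were lower by 2-fold or more (13.6% of all genes), with a median of -1.29, against -0.43 for class I. A constant added to an array moves both medians alike, so these class differences do not depend on the percentile used for scaling. Some lists of genes beside the MHC were also higher in liver than in uterus. Above 0 lay 7 of 7 folding and peptide editing genes of the endoplasmic reticulum. So did 8 of 8 proteasome genes outside the members and 9 of 9 genes of endosomal class II processing. Their medians were 1.13, 0.81 and 1.19, so this direction was not particular to class I. Of MHC transcription factors, class I-like genes outside H-2 and co-stimulatory genes, 3 of 12, 3 of 9 and 3 of 7 were below 0.

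**Figure D1:**
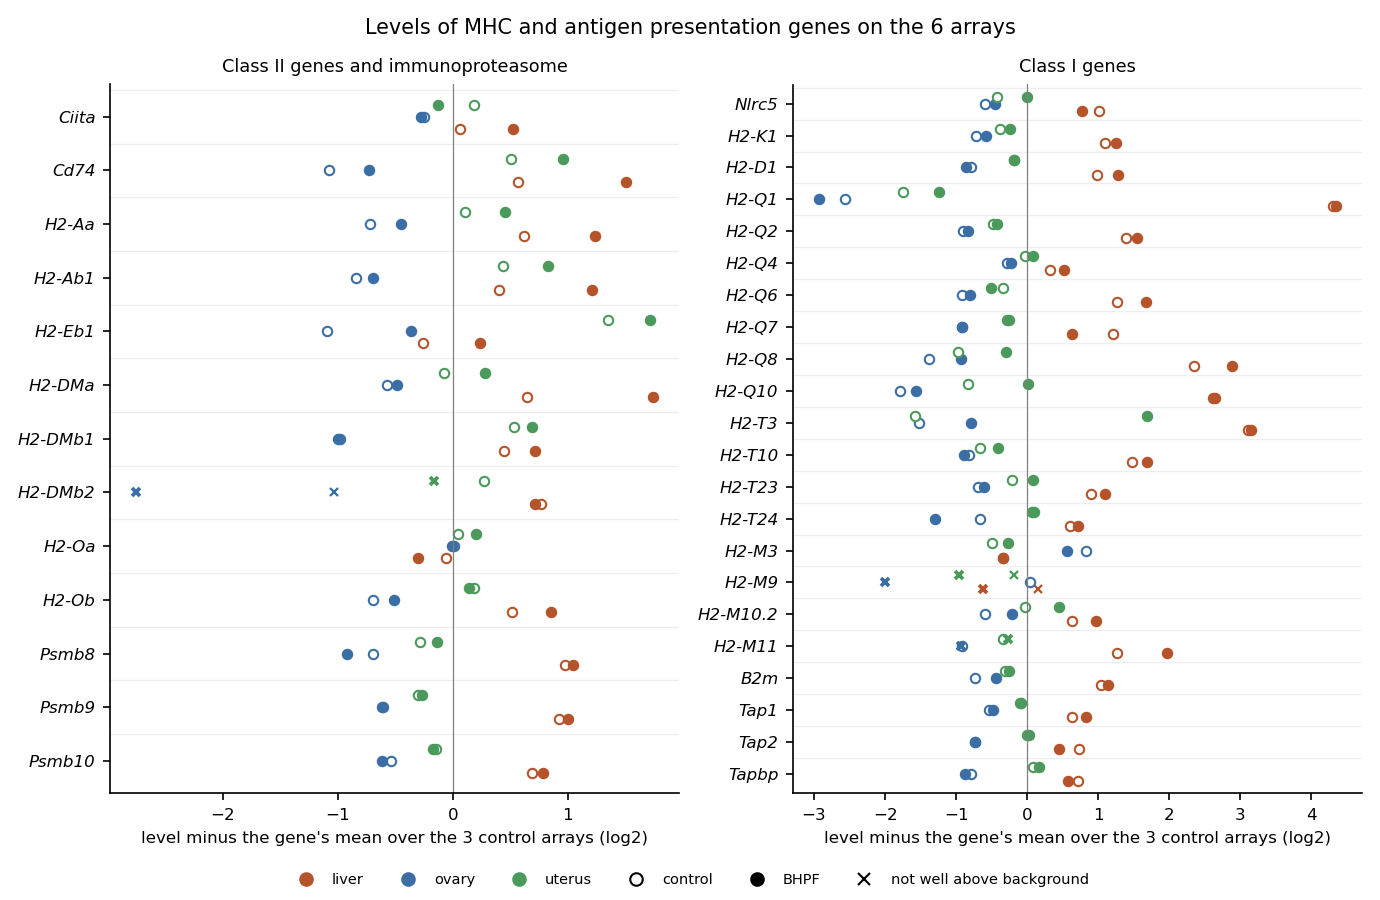
Level of each member on the 6 arrays, minus the mean of that gene over the 3 control arrays (log2, horizontal axis), with class II and immunoproteasome genes on the left and class I genes on the right. Colours mark the organ, open circles the control array, filled circles the BHPF array and crosses levels that were not well above background. Liver lies rightmost for most class I genes, whereas ovary lies leftmost for most class II genes.

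The order of the organs was also taken gene by gene. Among class I genes measured in all 3 control organs, 19 of 21 ran from liver through uterus to ovary. H2-M3, which presents formylated peptides, ran from ovary at 1.33 through liver at 0.16 to uterus at 0.00 on the control arrays, with 1.06, 0.16 and 0.23 on the BHPF arrays, and was the only member at least 2-fold higher in ovary than in liver (22.7% of all genes). Its liver and uterus levels differed by 0.16, near the SD of a single-spot ratio. Among 9 class II genes, 4 ran from liver through uterus to ovary, 4 were highest in uterus with liver next and 1, H2-Oa, was highest in uterus and lowest in liver, its 3 levels lying within 0.10 of each other. Of the 4, only H2-Eb1 stood clear of the single-spot SD, with a liver over uterus ratio of -1.61, while H2-Ab1, H2-DMb1 and Ciita had -0.03, -0.08 and -0.12. On the BHPF arrays 7 of 9 class II genes ran from liver through uterus to ovary.

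**Figure D2:**
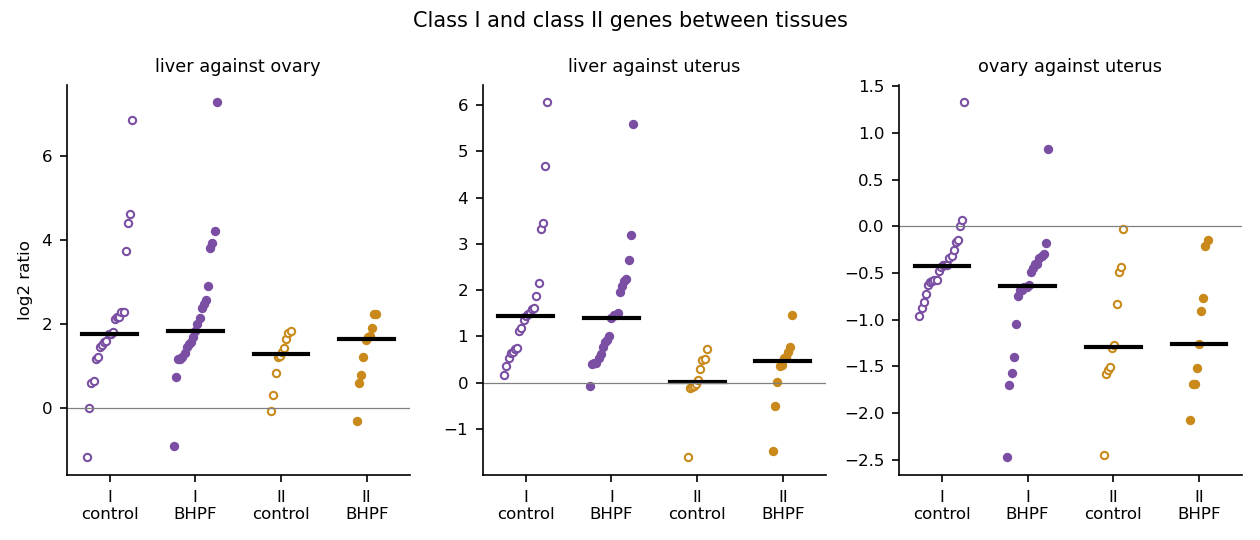
Log2 ratio of each class I gene (purple) and class II gene (orange) between the organs named over each panel, for control arrays (open) and BHPF arrays (filled), with black bars at the medians. In the middle panel the class I medians are 1.43 and 1.39, while those of class II are 0.01 for control and 0.46 for BHPF arrays.

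The classical class I heavy chains lay above the 75th percentile in every organ and were brightest in liver. H2-K1 had levels of 4.16 in control and 4.31 in BHPF liver, 2.34 and 2.48 in ovary, and 2.69 and 2.82 in uterus. H2-D1 had levels of 4.01 and 4.31 in liver, 2.23 and 2.16 in ovary, and 2.83 and 2.84 in uterus. For both genes liver lay above uterus and uterus above ovary on control and BHPF arrays alike, and the largest BHPF ratio of either was 0.30, for H2-D1 in liver. One probe of H2-K1 is printed 10 times, and its spots spread with an SD of 0.08 to 0.18 on the 6 arrays. Class I genes are close copies of each other, the probe sequences were not used here and CD-1 mice may carry other alleles than the array's reference, so a class I probe may read more than the gene it is named for.

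The genes that load class I were likewise highest in liver. B2m, the light chain of all class I molecules, had levels of 4.72 and 4.82 in control and BHPF liver, 2.95 and 3.24 in ovary, and 3.36 and 3.42 in uterus. Tap1, a subunit of the peptide pump, had levels of -1.05 and -0.86, -2.22 and -2.17, and -1.78 and -1.77 in the same order of arrays. Tap2, its partner, had levels of 2.28 and 1.99, 0.81 and 0.81, and 1.54 and 1.56. In all 3 genes liver was highest under both treatments and no BHPF ratio exceeded 0.29 in size. Tapbp (tapasin), which bridges the pump and the empty heavy chain, had levels of 3.14 and 3.00 in liver, 1.63 and 1.55 in ovary, and 2.51 and 2.59 in uterus. Nlrc5, the transactivator of class I genes, had levels of -1.26 and -1.5, -2.86 and -2.72, and -2.69 and -2.27. Tapbp was again highest in liver on either array. The Nlrc5 levels are means over 2 probes. One was highest in liver throughout, at 1.44 and 1.30, whereas the other, at -3.96 and -4.31 in liver, was at -4.65 and -4.63 in ovary and at -4.27 and -3.74 in uterus, so that on the BHPF arrays it was higher in uterus than in liver. The 3 immunoproteasome subunits, which replace constitutive proteasome subunits under interferon gamma, had BHPF ratios of 0.06 to 0.10 in liver. Psmb8 had levels of 2.74 and 2.80 in liver, 1.06 and 0.84 in ovary, and 1.48 and 1.62 in uterus. Psmb9 had levels of 2.72 and 2.79, 1.18 and 1.19, and 1.5 and 1.52, and Psmb10 of 3.37 and 3.48, 2.15 and 2.07, and 2.54 and 2.51. All 3 subunits ran from liver through uterus to ovary in control and treated mice.

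A few non-classical class I genes differed far more between organs. H2-Q1 was 117-fold brighter in control liver than in control ovary and 66.7-fold brighter than in control uterus, H2-T3 was 24.6-fold and 25.7-fold brighter, H2-Q10 was 21.1-fold and 10.9-fold brighter and H2-Q8 was 13.3-fold and 9.98-fold brighter. H2-T23, a ligand of natural killer cell receptors, had levels of 4.27 and 4.46 in liver, 2.69 and 2.77 in ovary, and 3.16 and 3.45 in uterus. Its liver ratios over ovary and uterus, 1.58 and 1.11, were thus close to those of the classical genes. H2-Q10 had levels of 3.39 and 3.42 in liver, -1.01 and -0.78 in ovary, and -0.05 and 0.78 in uterus. Its 2 probes differed in how far the organs lay apart. One was at 4.02 in control liver and 1.11 in control uterus, the other at 2.76 and -1.22.

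None of the other class I members reached 2-fold with BHPF. H2-Q2, H2-Q4, H2-Q6, H2-T10, H2-T24 and H2-M10.2 had ratios of 0.11 to 0.42 in liver, -0.34 to 0.39 in ovary and -0.18 to 0.47 in uterus. The ovarian value of -0.34 belongs to H2-T24 and averages a measured -0.63 with a bound of -0.05 from a probe well above background on the control ovary array only. The 2 probes of H2-Q2 differed in sign in uterus, at -0.23 and 0.35. In liver H2-Q7 had the lowest ratio of any member, from 4.38 to 3.80, and H2-M11 the highest of class I, from -3.21 to -2.50. H2-M9 was well above background on the control ovary array only, so none of its ratios had a size. Outside the classes, H2-K2 had ratios of 0.16, 0.09 and 0.15 in liver, ovary and uterus and H2-Ke6 of 0.13, 0.20 and 0.17.

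With BHPF in liver, the median ratio of class II genes lay above that of class I genes, while 1 class II gene and no class I gene reached 2-fold. The class II median was 0.48 and the class I median 0.15, where all genes had 0.00. Class II thus lay 0.33 above class I, and this difference ran from 0.22 to 0.39 over the alternative processings. Some of these, such as a change of percentile, cannot move it. Of the members, 1 of 36 evaluated was called, H2-DMa, against 3.2% of all genes at least 2-fold higher and 4.74% changed either way. At 1.5-fold, a threshold added after the values were seen, 5 members were higher (7.16% of all genes), 4 of them of class II. Above 0 lay 29 of 36 members, including 8 of 10 class II genes, against 49.7% of all genes. The 2 class II genes below 0 were H2-Oa, at -0.25, and H2-DMb2, at -0.05.

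H2-DMa, a chain of the H2-DM peptide editor, was at -0.26 on the control and 0.84 on the BHPF liver array, 2.14-fold higher. It was at -1.47 and -1.39 in ovary and -0.98 and -0.62 in uterus. Cd74, the invariant chain that guards the peptide groove, was at 1.31 and 2.24 in liver, 1.91-fold higher, at -0.33 and 0.01 in ovary and at 1.25 and 1.70 in uterus. In both genes the BHPF array was above the control array in each organ, by most in liver. The liver ratio of H2-DMa fell short of 2-fold under 2 other scalings, at 0.78 with the 50th percentile and 0.94 with quantile normalization.

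None of the 3 chains that hold the peptide reached 2-fold in any organ, and their liver ratios were all above 0. H2-Ab1 was at 1.72 and 2.53 in liver (1.75-fold), 0.48 and 0.63 in ovary, and 1.75 and 2.14 in uterus. Its 2 probes gave liver ratios of 0.75 and 0.86, uterine ratios of 0.39 and 0.39, and ovarian ratios of 0.35 and -0.05. Both probes were thus above 0 in liver and uterus, and they disagreed in sign in ovary. H2-Aa, the partner chain of H2-Ab1, was at 2.64 and 3.25 in liver, 1.30 and 1.57 in ovary, and 2.13 and 2.48 in uterus. H2-Eb1 was at -1.5 and -1.0 in liver, -2.34 and -1.61 in ovary, and 0.11 and 0.47 in uterus. Of the 3 chains it alone lay well above its liver level in uterus, with liver over uterus ratios of -1.61 on the control and -1.47 on the BHPF arrays, where H2-Ab1 had -0.03 and 0.39 and H2-Aa 0.51 and 0.78.

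The remaining class II genes were nearer 0 in liver. H2-DMb1, the other chain of H2-DM, was at -0.26 and 0.01 in liver, -1.69 and -1.70 in ovary, and -0.18 and -0.02 in uterus. Ciita, the transactivator of class II genes, was at 3.00 and 3.46 in liver, 2.68 and 2.66 in ovary, and 3.12 and 2.81 in uterus. Its BHPF ratio was thus 0.46 in liver and -0.31 in uterus, where the class II chains had 0.35 to 0.39. Ciita rests on 1 probe, brighter than that of Cd74 on every array. Whether this probe also reads other transcripts was not tested. H2-Oa, a chain of the H2-DM inhibitor H2-O, was at -2.65 and -2.90 in liver, -2.58 and -2.60 in ovary, and -2.55 and -2.39 in uterus. H2-Ob, its partner, was at -2.84 and -2.50, -4.05 and -3.86, and -3.17 and -3.21 by the probe measured on all arrays. H2-DMb2 was at -4.47 and -4.52 in liver, near background on both ovary arrays, and well above background in the uterus on the control array only. Neither chain of H2-O, which B cells carry most, reached 1.5-fold in any organ.

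**Figure D3:**
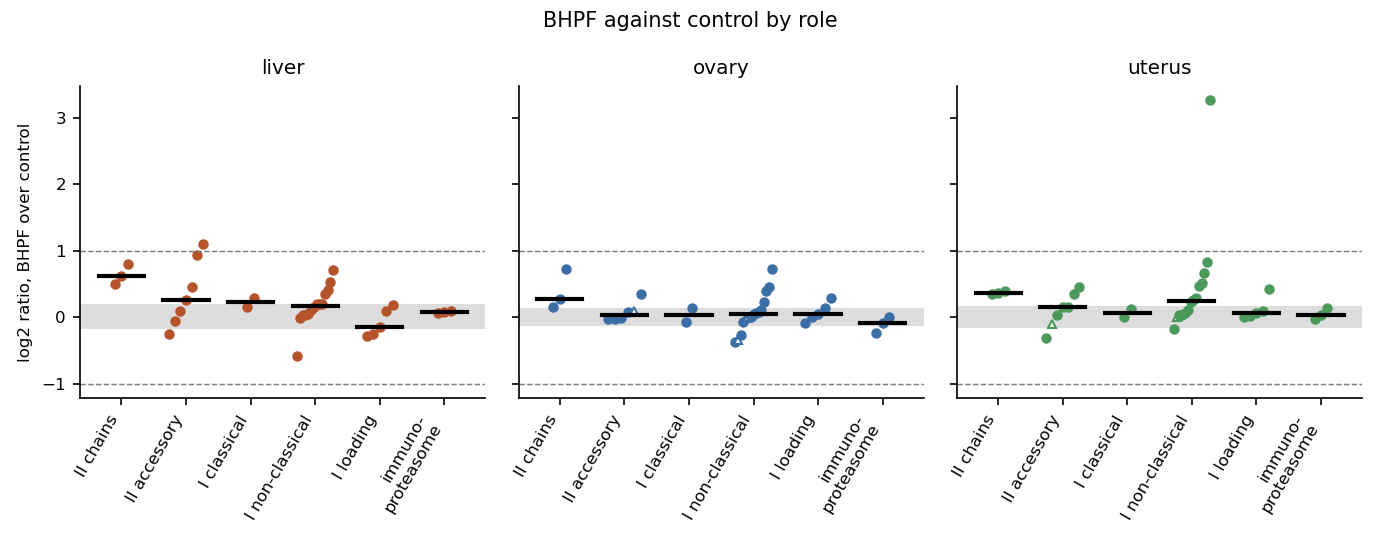
Log2 ratio of the BHPF over the control array for each member (vertical axis), grouped by role, in liver, ovary and uterus. Circles are measured ratios, open triangles ratios that rest on a bound, black bars group medians, the grey band the middle 50% of all genes and dashed lines the 2-fold threshold. In liver the 3 class II chains lie at 0.50 to 0.81, above the band, and in uterus H2-T3 stands alone at 3.26.

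Scaling bears on the liver values. With each array's 50th percentile subtracted in place of its 75th, every liver ratio fell by the same 0.31, and the medians became -0.16 for class I, 0.17 for class II and -0.30 for all genes. The 19 of 36 members whose liver ratio lay between 0 and that shift changed sign with it, among them H2-K1, H2-D1, B2m, Tap1, Psmb8, Psmb9, Psmb10 and H2-DMb1. Relative to the median of all genes the class medians hardly moved.

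The marker lists of cells that carry class II had medians below 0 in liver. Of 10 dendritic cell markers 3 were above 0 and 6 below, with a median ratio of -0.20, and the log2 of their summed levels went from 2.22 to 1.84. Of 11 macrophage markers 8 were below 0, with a median of -0.11 and a summed level of 6.19 and 5.92. Adgre1 (F4/80) had a ratio of -1.08 and Cd163, dim at -5.35 on the control array, of 1.27. The Kupffer cell markers differed in sign, Clec4f and Vsig4 having ratios of 0.22 and 0.28 and Timd4 and Marco of -0.75 and -1.85. Of 6 B cell markers evaluated 3 were above 0 and 3 below, with a median of -0.36, while their summed level went from 3.47 to 3.56. All of these lists were well above background in control liver, except for 2 of 8 B cell markers.

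The other leucocyte lists did not share 1 direction in liver. All 8 T cell markers were above 0, with a median of 0.25, and their summed level went from 1.18 to 1.47. That median is smaller than the shift that 50th percentile scaling brings in liver. Of 8 neutrophil markers 7 were lower by 2-fold or more, as were 239 of all 15530 genes. The neutrophil median ratio was -2.64, with a summed level of 5.16 and 2.64. Of 5 pan-leucocyte markers 4 were below 0, with a median of -0.48, the ratio of Ptprc (CD45). Of 18 interferon-induced genes 8 were above 0 and 10 below, with a median of -0.04. At 1.5-fold 3 of them were higher (7.16% of all genes) and 1 was lower. The 3 were Cxcl9 at 0.75, Cxcl10 at 0.78 and Ifit3 at 0.59. The part of these cells in the class II ratios was not tested.

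**Figure D4:**
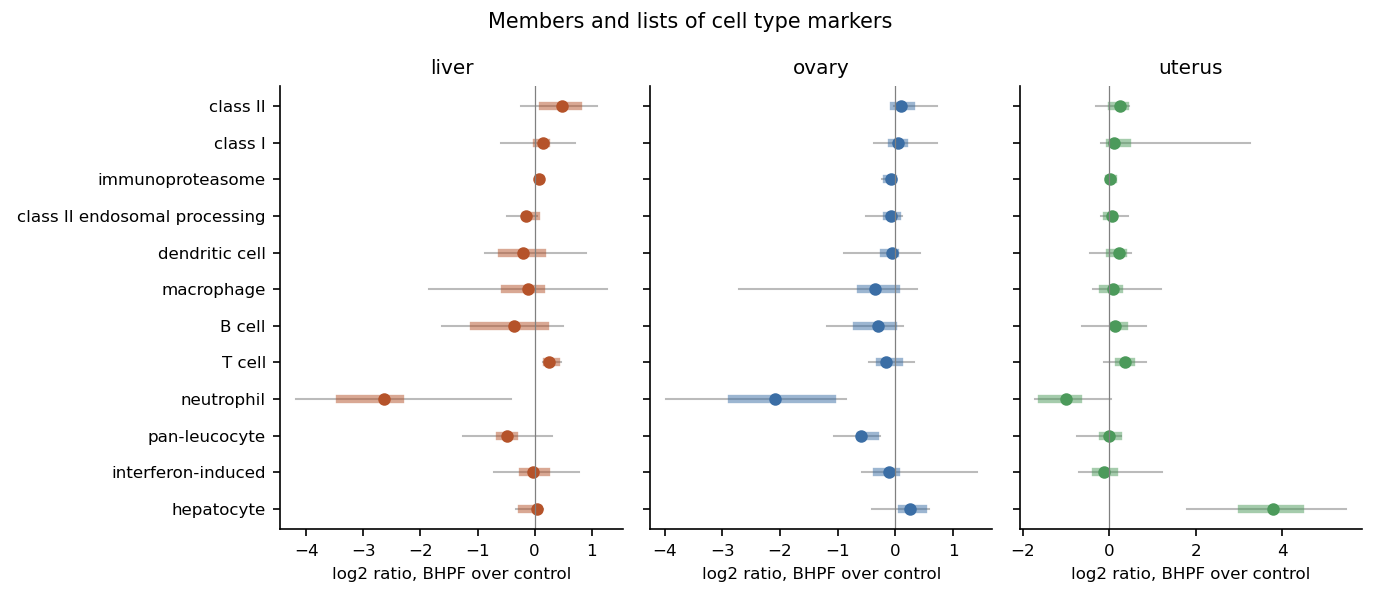
Log2 ratio of BHPF over control for class II, class I, the immunoproteasome, endosomal processing genes and marker lists of cell types, by organ. Points are list medians, thick bars the middle 50% of a list and thin lines its range. In liver the class II median of 0.48 lies above those of the dendritic cell, macrophage and B cell lists, and the neutrophil list lies at -2.64.

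In ovary, 0 of 36 members were called (1.09% of all genes). Medians were 0.09 for class II and 0.05 for class I, against 0.01 for all genes, and the difference of 0.04 ran from -0.02 to 0.15 over the alternatives. At 1.5-fold 2 members were higher (1.46% of all genes). These were H2-Eb1, whose levels stand above, and H2-T3, with a ratio of 0.72. The other chains H2-Aa and H2-Ab1 had ratios of 0.28 and 0.15 and H2-D1 of -0.07. The ovarian macrophage markers had a median of -0.36 and the pan-leucocyte markers, all 5 below 0, of -0.59, so that the class II chains and these lists differed in sign.

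In uterus, class II had a median of 0.25 and class I of 0.12, where all genes had 0.00. Both medians change sign if the arrays are exchanged as the authors' table heads them. The 3 class II chains had ratios of 0.35 to 0.39 and Cd74 of 0.45, all between the middle 50% of all genes and 1.5-fold. Beside them 7 of 9 dendritic cell markers, 7 of 10 macrophage markers and 7 of 8 T cell markers were above 0, with medians of 0.23, 0.08 and 0.37. By contrast 6 of 7 neutrophil markers were below 0, with a median of -1.0, as were 3 of 5 pan-leucocyte markers, with a median of -0.0055 and Ptprc at -0.75. Of the Kupffer cell markers, Clec4f and Vsig4 had uterine ratios of 1.21 and 1.04 and Timd4 and Marco of -0.22 and -0.38. With the liver share subtracted the medians were 0.24 for class II and 0.077 for class I. The part of leucocytes was not tested.

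H2-T3, which encodes the thymus leukaemia antigen found on intestinal epithelium, was the only member of 36 called in uterus (3.09% of all genes changed either way and 2.27% higher). It was at -4.31 on the control and -1.05 on the BHPF array, 9.61-fold higher. Its liver levels were 0.37 and 0.42 and its ovary levels -4.25 and -3.52. At 1.5-fold 3 members were higher (4.16% of all genes), the others being H2-Q10 and H2-Q8. The 2 probes of H2-Q10 gave 0.31 and 1.36, the first short of 1.5-fold and the second past 2-fold. The non-classical genes with high liver over uterus ratios, H2-T3, H2-Q10, H2-Q8 and H2-Q1, had the 4 uterine BHPF ratios of class I that were largest in size, at 3.26, 0.84, 0.67 and 0.51, and both ratios share the control uterus array. With the uterus arrays exchanged all 4 turn negative and become the lowest of class I. By scaled intensity, the excess of H2-T3 on the BHPF uterus array amounted to 32.4% of its value in BHPF liver. That of the H2-Q10 probes amounted to 11.2% and 2.71%, that of H2-Q8 to 4.05% and that of H2-Q1 to 0.63%. Adding the median liver share of 0.65% to the control uterus array would give log2 ratios of 0.23 for H2-T3, measured at 3.26, and 0.53 for H2-Q1, measured at 0.51. The H2-Q1 probe is itself among the liver probes from which that share was taken, so its nearness is no separate check. With that share subtracted the ratio of H2-T3 was 3.24.

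**Figure D5:**
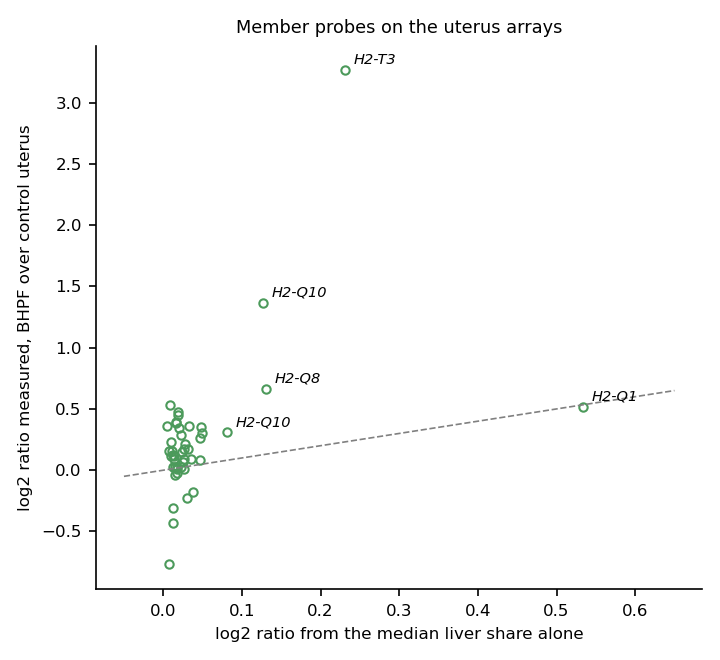
Measured log2 ratio of BHPF over control uterus (vertical axis) for each member probe against the ratio that the median liver share alone would give (horizontal axis); the dashed line marks equality. H2-Q1, whose probe is among those that set the share, lies near the line at 0.51, and H2-T3 lies far above it at 3.26.

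The ratios of the 3 organs share no array, but the organs were collected from the same groups of control and treated mice. They are therefore not independent repeats. Of 35 members evaluated in each organ, 19 were above 0 in all 3 and 0 were below 0 in all 3, where 15.1% and 13.0% of all genes were. The 19 included the 3 class II chains, Cd74, H2-DMa, H2-K1, B2m and H2-T23. Some of their ratios were near or under the single-spot SD. H2-K1 had 0.15, 0.14 and 0.13 in liver, ovary and uterus, and B2m had 0.09 in liver and 0.06 in uterus. B2m changed sign in liver with the 50th percentile and with normexp, and in uterus with the 50th percentile. This share rests on the uterus labels and on the scaling of liver. With the uterine ratios turned in sign, as the authors' table heads them, 1 of the 35 was above 0 in all 3 organs and 3 were below, against 14.5% and 12.4% of all genes. With the 50th percentile in liver 7 were above 0 in all 3, of which 5 were class II genes, and 1 was below, against 4.70% and 20.1% of all genes. Both recomputations were chosen after the values had been seen. The control and BHPF arrays differed in slide position in every organ.

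Genes that work beside the MHC mostly stayed within 2-fold. In liver, 6 of 9 evaluated genes of endosomal class II processing were below 0, with a median of -0.15, among them Ifi30, a thiol reductase, at -0.48 and Ctss, the protease that trims Cd74, at -0.15. Irf1, an activator of MHC genes, had a liver ratio of 0.51, and 8 of 12 transcription factors of MHC genes were below 0. Of the 8 proteasome genes of the list outside the members none reached 2-fold in any organ. Among class I-like genes outside the H-2 complex, Procr, the protein C receptor, was at 1.4 and 0.01 in liver, a ratio of -1.38. Azgp1, a secreted class I-like protein made in liver, was at -0.53 on the BHPF uterus array and not well above background on the control uterus array, at least 30.2-fold higher. The stress ligand H60c was at -4.29 and -2.88 in uterus. Co-stimulatory Cd86 was at -2.23 and -2.99 in liver, a ratio of -0.76, opposite in sign to the class II chains.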

How the data were processed

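The authors extracted the scanned arrays with Agilent Feature Extraction (version 9.1 in the submitters' processing notes, another version in the file headers), and the deposited scanner files give 1 background-subtracted intensity per spot, not normalized between arrays. A second deposited file holds log2 values that the authors shifted per array by a percentile, and it served as an alternative. The array design names mm9, and coordinates were taken only from the RefSeq promoter table (GRCm38.p6). Outlier and control spots were left out, spots of a probe were averaged as log2 intensities, and each array was set to the 75th percentile of its 55681 probes (Python 3.11.15, pandas 2.3.3). The methods do not say which percentile the authors used.

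A symbol was found for 26762 probes (48.1%). A probe entered a ratio when it was well above background on either array. If on 1 only, the other array was set at the higher of its own level and the lowest level well above background there, so the ratio is a bound. Ratios of the probes of a gene were averaged, and printed levels are means over its probes well above background on most arrays. No member probe was saturated. A call needed a 2-fold difference, with 4-fold as a stricter alternative. Each group had 1 array, so no test was run. Quantile normalization and normexp (offset 50, on median signals) used limma 3.58.1 in R 4.3.3. The call was checked on simulated data. Members and lists were chosen with earlier results of these data known. Levels on all arrays are given for the class II genes, H2-K1, H2-D1, H2-Q10, H2-T23, H2-M3, the loading and immunoproteasome genes, and members called with BHPF. Genes singled out beyond these were chosen after their values were seen.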

Additional observations from a re-analysis of the deposited data

How the results depend on the processing

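The class medians, the class differences, the counts of members called and the BHPF ratios of the members whose levels are given on all arrays were recomputed with 1 choice changed at a time, while organ orders and marker lists were not. No paired analysis was possible because each group has 1 array. For the same reason no replicate could be left out. Class II minus class I with BHPF in liver kept its sign under all 12 alternatives. Of these, the changes of percentile move both medians alike, and exchanging the uterus columns leaves the liver values as they were. Such alternatives are no further check of the sign. In ovary the class difference ran from -0.02 to 0.15. In uterus it was -0.14 with the authors' table as headed, where the medians were -0.12 for class I and -0.25 for class II and H2-T3 reversed to -3.26, and -0.087 without a filter on dim probes. With 50th percentile scaling the liver BHPF medians were -0.16 for class I and 0.17 for class II. Members called with BHPF in liver numbered 0 at 4-fold, 5 at 1.5-fold, 0 with 50th percentile scaling, 0 with quantile normalization (H2-DMa at 0.94), 2 with normexp and 2 without the filter. In ovary they numbered 2 at 1.5-fold and 1 each with normexp, the authors' table under either heading, no filter, and own values in place of bounds, and in uterus 3 at 1.5-fold and 2 when probes were counted.

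Between control organs every class I median kept its sign. For liver against ovary it was 1.60 without non-classical chains, 2.24 with the 50th percentile, 1.4 with the 75th percentile taken over probes bright on every array, 1.30 with quantile normalization and 1.55 without the filter. For class II it was 1.76 with the 50th percentile and 0.91 with the 75th over probes bright on every array. The class difference was -0.31, -0.13 and -0.30 without non-classical chains, with quantile normalization and without the filter. For liver against uterus the class I median was 1.18, 2.01, 1.07, 1.01 and 0.92 under the same 5 settings and 1.30 with the table as headed, and class II was 0.59 and -0.34 under the 2 percentiles. The class difference was -1.16, -1.10 and -0.95 without non-classical chains, with quantile normalization and without the filter. For ovary against uterus class I was -0.65 and class II -1.57 with the table as headed, class II was -1.01 with normexp and -1.09 with the brightest probe, and the class difference was -1.05 with quantile normalization, -0.60 with normexp and -0.66 with the brightest probe. Causes were not tested. Every ratio of H2-M9 and the uterine BHPF ratios of H2-DMb2 and H2-M11, all dim members, rest on bounds. There signal over background limits what could be seen. The liver BHPF ratios of H2-DMb2 and H2-M11 were measured.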
